A study of Mus musculus with 12 samples.

Results

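The myelin genes were 9 genes of mature oligodendrocytes, followed in the striatum of R6/2 and wild-type mice: Mbp, Mog, Mag, Mobp, Cnp, Mal, Cldn11, Ugt8a and Opalin. They were taken by symbol from the deposited expression table, and all 9 were present among its 15397 genes. RNA was sequenced from 12 libraries, 1 per mouse, with 3 mice in each of 4 groups: R6/2 mice given PLX3397, R6/2 mice given vehicle, wild-type mice given PLX3397 and wild-type mice given vehicle. PLX3397 was given in chow at 275 ppm from 7 to 11 weeks of age, all mice were labelled C57BL/6, and the tissue was microdissected striatum. R6/2 mice carry the first exon of human huntingtin with an expanded CAG repeat under the human huntingtin promoter and model Huntington's disease. PLX3397 blocks the CSF1 receptor, on which microglia depend, and the study used it to remove these cells. The design thus asks whether the myelin genes differ by genotype, by drug, and by drug differently in the 2 genotypes.

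Myelin is the sheath that oligodendrocytes wrap around axons, and in the striatum it lies largely in the fibre bundles that cross the tissue. Its compact layers are held together by abundant structural proteins, its outer and inner turns carry adhesion molecules, and its membrane is rich in galactolipids and cholesterol. These genes are switched on together as a precursor cell matures, under transcription factors such as SOX10 and MYRF.

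RefSeq promoter windows of GRCm38.p6, which run from 250 bases before to 50 after the transcription start, were available for 8 of the 9. The windows of the genes below are shown because these genes passed the test when both R6/2 groups were set against both wild-type groups. Capitals mark ACAAAG or its reverse complement CTTTGT, a core that SOX proteins recognise.
Mobp (chr9:120149492-120149791, plus strand): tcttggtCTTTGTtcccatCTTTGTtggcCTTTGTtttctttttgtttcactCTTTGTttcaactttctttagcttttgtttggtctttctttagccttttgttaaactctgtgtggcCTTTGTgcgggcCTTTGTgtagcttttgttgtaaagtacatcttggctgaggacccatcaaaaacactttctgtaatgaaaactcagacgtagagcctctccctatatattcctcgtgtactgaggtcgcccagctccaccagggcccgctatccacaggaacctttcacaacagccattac
Mal (chr2:127656646-127656945, minus strand): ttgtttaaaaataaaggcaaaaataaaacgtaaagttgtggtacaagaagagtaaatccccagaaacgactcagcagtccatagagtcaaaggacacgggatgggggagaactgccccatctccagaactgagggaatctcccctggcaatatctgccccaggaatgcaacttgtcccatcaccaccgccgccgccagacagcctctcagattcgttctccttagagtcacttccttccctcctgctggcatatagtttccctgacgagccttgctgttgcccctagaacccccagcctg
Cldn11 (chr3:31149670-31149969, plus strand): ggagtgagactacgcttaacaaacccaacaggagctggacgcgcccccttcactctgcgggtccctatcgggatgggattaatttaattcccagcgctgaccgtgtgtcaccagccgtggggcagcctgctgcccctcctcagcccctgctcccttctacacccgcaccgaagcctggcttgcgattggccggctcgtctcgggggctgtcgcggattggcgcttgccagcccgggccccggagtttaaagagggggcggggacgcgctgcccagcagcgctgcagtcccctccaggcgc
Ugt8a (chr3:125938603-125938902, minus strand): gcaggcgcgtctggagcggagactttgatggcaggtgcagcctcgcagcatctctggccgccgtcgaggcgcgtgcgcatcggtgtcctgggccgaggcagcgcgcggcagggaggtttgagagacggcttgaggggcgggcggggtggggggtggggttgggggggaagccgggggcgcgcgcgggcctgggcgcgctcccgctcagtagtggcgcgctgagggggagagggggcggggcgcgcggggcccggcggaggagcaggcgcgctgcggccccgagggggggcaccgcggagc
All 6 capital blocks of the Mobp window read CTTTGT on the printed strand, and it was the only 1 of 32851 mouse promoter windows searched on both strands to hold that many copies. At least 1 copy stood in the windows of 4 of the 8 genes (Mobp, Mag, Cnp and Opalin) and in 18.7% of all windows. The windows of Mal, Cldn11, Ugt8a and Mog held none. Of the other motifs searched on both strands, ACAATG, also a SOX core, was in 0 of the 8 genes and 12.6% of all windows. CTGGCAC was in 3 genes and 5.01% of windows, CTGGTAC in 1 and 2.24%, and CAGCTG in 1 and 16.3%. Base composition also differed, with GC at 43.3% in the Mobp window, 51.0% at Mal, 66.3% at Cldn11 and 78.3% at Ugt8a, against a median of 52.7% over all windows.

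The genes lie apart in the mouse genome (GRCm38, RefSeq positions). Mbp lies on chromosome 18 at 82475091 to 82585637, Mal on chromosome 2 at 127633226 to 127656695, and Mobp on chromosome 9 at 120149742 to 120181488. Cldn11 lies on chromosome 3 at 31149920 to 31164326 and Ugt8a on the same chromosome at 125865272 to 125938682. Cnp is on chromosome 11, Mag on 7, Mog on 17 and Opalin on 19.

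Levels were read as log2 CPM, the log2 of read counts scaled to library size, and each library held 18902120 to 24293208 reads over all genes of the table, of which the 9 members took 0.365% to 1.05%. The members were well covered, with between 585 reads (the lowest, for Opalin) and 155766 reads (the highest, for Mbp) in a library. Mbp, which encodes the protein that holds the cytoplasmic faces of myelin together, ranked 4 among all genes by mean log2 CPM. Per kilobase of exon, the mean level over all libraries was 608 CPM for Mbp, 259 for Cnp, 164 for Mag, 135 for Mal, 101 for Mobp, 94.6 for Cldn11, 80.1 for Mog, 27.5 for Ugt8a and 23.2 for Opalin. Mal and Mobp exchanged places when the longest transcript was used as the length. Summed over the 9 genes, the level was 3924, 3570 and 6311 CPM in the R6/2 PLX3397 libraries, 7821, 4971 and 5762 CPM in R6/2 vehicle, 11250, 9308 and 7151 CPM in wild-type PLX3397, and 10328, 10562 and 6214 CPM in wild-type vehicle. The ranges of the R6/2 PLX3397 and the wild-type PLX3397 libraries did not overlap, and the other group pairs did. In whole tissue, fewer oligodendrocytes and less myelin RNA per oligodendrocyte cannot be told apart.

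Marker genes of other cell types and regions differed between libraries, and their part in the results was not tested beyond the settings given. Microglial markers (12 genes) averaged -0.62 to 0.24 log2 CPM in R6/2 PLX3397 and 4.75 to 5.23 in R6/2 vehicle, and -1.10 to 0.91 in wild-type PLX3397 against 4.93 to 5.06 in wild-type vehicle. Cortical neuron markers (10 genes) were low in R6/2 PLX3397 libraries 1 and 2 (2.65 and 2.69) and in wild-type PLX3397 library 1 (3.08), and lay between 4.37 and 6.35 in the other libraries. Choroid plexus and ependymal markers (8 genes) were highest in R6/2 vehicle library 1 (4.75) and wild-type PLX3397 library 1 (4.64), with Ttr at 12.10 and 9.89 log2 CPM in those libraries. All 12 medium spiny neuron markers, which mark striatal output cells, fell in R6/2 averaged over the drug, with a median difference of -2.65. The 4 measured Schwann cell markers, which would reveal peripheral myelin, summed to between 4.41 and 38.2 CPM. Thalamic, septal and basal forebrain markers (12 genes) averaged 2.67 to 3.90 log2 CPM in R6/2 PLX3397 and 2.16 to 3.12 in R6/2 vehicle, and 1.54 to 3.29 in wild-type PLX3397 and 3.03 to 3.95 in wild-type vehicle. Their median difference was -1.32 between R6/2 vehicle and wild-type vehicle, -1.41 for the drug in wild type and 2.62 for the drug difference between genotypes. For the last, 3 of the 12 were called higher, where 17% of all genes were called in either direction. After removal of a trend on GC content and length 1 of the 12 was called. The labels name no batch or sex.

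**Figure D1:**
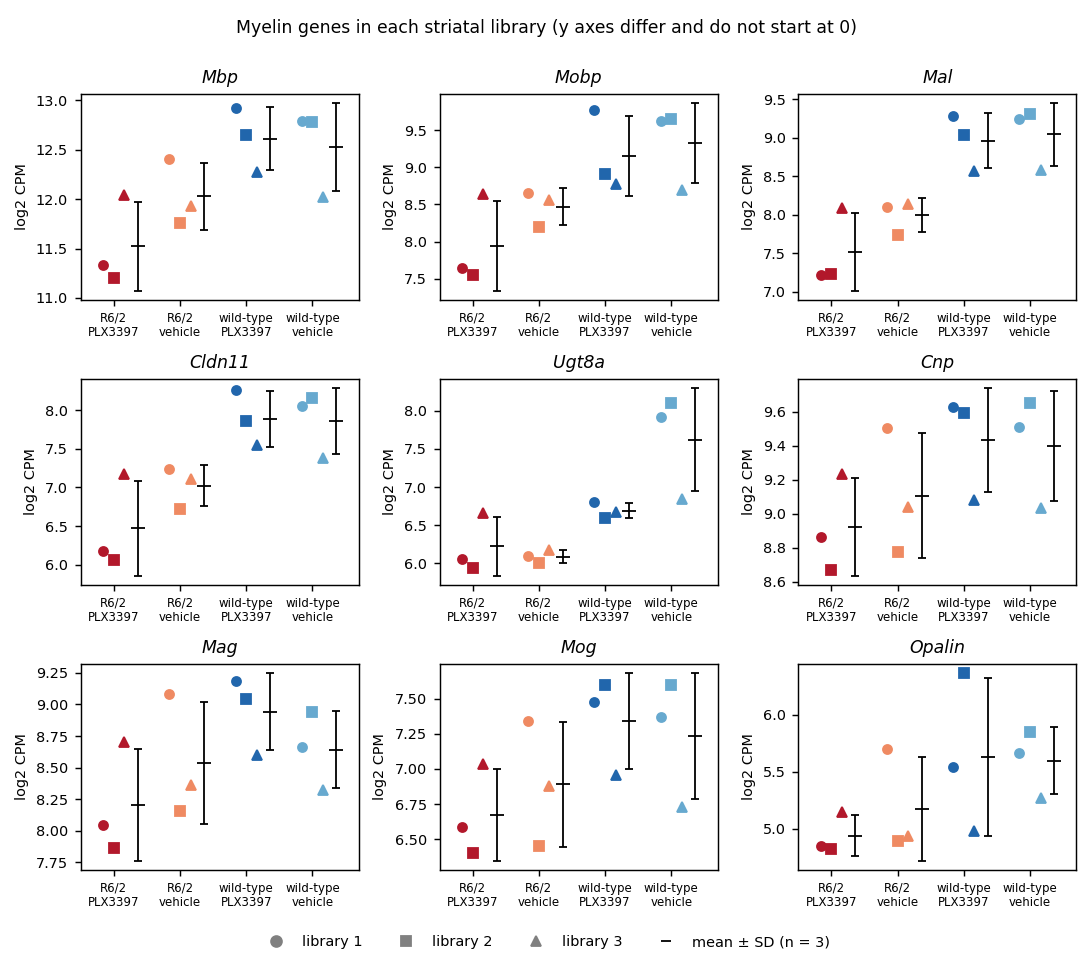
Log2 CPM (y axis, a different range for each gene) of the 9 myelin genes in the 12 libraries, by group. Points are single mice, with the same symbol for the same library number in every panel, and bars are the mean ± SD of 3. For Mal, the 6 R6/2 libraries lie at or below 8.14 and the 6 wild-type libraries at or above 8.57.

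The main result was a lower level of the myelin genes in R6/2 than in wild-type striatum, clearest for Mal, Cldn11 and Mobp. This comparison, the mean of both R6/2 groups against the mean of both wild-type groups, was added after the data had been seen. All 9 genes lay below 0, with a median difference of -0.79 on the log2 scale, against 0.01 over all genes. By limma with Benjamini-Hochberg adjustment over all genes, 5 of 9 were lower at an adjusted p under 0.05 (Mal, Cldn11, Ugt8a, Mobp and Mbp) and none higher, where 22.4% of all genes passed, 11.9% as lower and 10.5% as higher. In 3 of 9 (Mal, Cldn11 and Mobp) every R6/2 library lay below every wild-type library, which was so for 4.38% of all genes.

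Mal encodes a small membrane-raft protein that takes part in sorting proteins to myelin. It measured 7.22, 7.23 and 8.09 log2 CPM in R6/2 PLX3397 and 8.10, 7.74 and 8.14 in R6/2 vehicle, against 9.28, 9.03 and 8.57 in wild-type PLX3397 and 9.24, 9.31 and 8.57 in wild-type vehicle. Both R6/2 groups thus sat below both wild-type groups with no overlap. Averaged over the drug, Mal fell by 1.25 ± 0.20 (log2, SE; adjusted p = 0.00215 by limma), to 42.1% of the wild-type level, and it was the gene that passed under each of the 24 alternative settings tried. The difference was -1.05 ± 0.28 between the vehicle groups, where it did not pass (adjusted p = 0.0743), and -1.45 ± 0.28 between the PLX3397 groups (adjusted p = 0.00382).

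Cldn11 encodes claudin 11, which forms the tight junction strands between the layers of central myelin. Its level was 6.17, 6.06 and 7.17 log2 CPM in R6/2 PLX3397 and 7.24, 6.72 and 7.10 in R6/2 vehicle, against 8.27, 7.86 and 7.55 in wild-type PLX3397 and 8.05, 8.16 and 7.38 in wild-type vehicle. As for Mal, all R6/2 libraries lay below all wild-type libraries, with R6/2 PLX3397 library 3 close to the R6/2 vehicle libraries. The averaged difference was -1.13 ± 0.22 (adjusted p = 0.00567, limma), or 45.7% of the wild-type level. It was -0.84 ± 0.31 between the vehicle groups (adjusted p = 0.154) and -1.42 ± 0.31 between the PLX3397 groups (adjusted p = 0.0068).

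Mobp encodes a basic protein of compact myelin. It stood at 7.64, 7.55 and 8.64 log2 CPM in R6/2 PLX3397 and 8.66, 8.19 and 8.56 in R6/2 vehicle, against 9.76, 8.91 and 8.78 in wild-type PLX3397 and 9.62, 9.65 and 8.70 in wild-type vehicle. The highest R6/2 library, at 8.66, was just below the lowest wild-type library, at 8.70. Averaged over the drug it fell by 1.03 ± 0.25 (adjusted p = 0.0162, limma), to 49.0% of the wild-type level. Of the 24 alternatives, 23 kept this call for Mobp, as for Cldn11 and Ugt8a, and each lost it without both R6/2 PLX3397 libraries 1 and 2.

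Mbp, the most abundant member, fell less and overlapped. Its values were 11.33, 11.20 and 12.04 log2 CPM in R6/2 PLX3397 and 12.41, 11.75 and 11.92 in R6/2 vehicle, against 12.92, 12.64 and 12.28 in wild-type PLX3397 and 12.79, 12.78 and 12.02 in wild-type vehicle. The third libraries of wild-type PLX3397 and wild-type vehicle lay below the highest R6/2 library. The averaged difference was -0.79 ± 0.22 (adjusted p = 0.0276), and it missed the threshold without any 1 of R6/2 PLX3397 libraries 1 and 2, R6/2 vehicle libraries 2 and 3, and wild-type vehicle libraries 1 and 2.

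Ugt8a encodes the enzyme that makes galactosylceramide, the main galactolipid of myelin. It measured 6.06, 5.94 and 6.66 log2 CPM in R6/2 PLX3397 and 6.09, 6.00 and 6.17 in R6/2 vehicle, against 6.80, 6.60 and 6.67 in wild-type PLX3397 and 7.92, 8.10 and 6.85 in wild-type vehicle. Its order differed from that of the other 8 in that its lowest mean was in R6/2 vehicle (6.09 ± 0.09, SD, n = 3) rather than R6/2 PLX3397. Its 3 wild-type vehicle libraries lay above the libraries of all other groups. Averaged over the drug it fell by 1.00 ± 0.20 (adjusted p = 0.00647, limma).

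Cnp, Mag, Mog and Opalin had smaller differences that did not pass. Cnp encodes an enzyme of the cytoplasmic channels in myelin, and Mag an adhesion molecule of the turn nearest the axon. Mog encodes an immunoglobulin-family protein of the outermost surface, and Opalin a glycoprotein of mature oligodendrocytes. The averaged differences were -0.40 ± 0.17 for Cnp (adjusted p = 0.116), -0.42 ± 0.20 for Mag (0.156), -0.50 ± 0.20 for Mog (0.0951) and -0.55 ± 0.23 for Opalin (0.105). Opalin, the least expressed, ranged from 4.82 to 5.15 log2 CPM in R6/2 PLX3397, 4.89 to 5.70 in R6/2 vehicle, 4.99 to 6.36 in wild-type PLX3397 and 5.27 to 5.85 in wild-type vehicle.

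R6/2 PLX3397 libraries 1 and 2, low in cortical markers, also had the lowest summed myelin level. Without both, which leaves 1 library in that group, the averaged difference of Mal was -0.96 ± 0.21 in place of -1.25. The median of the 9 members was -0.54 in place of -0.79. Fewer members were called in that fit, and so were fewer of all genes. Wild-type PLX3397 library 1, also low in cortical markers, had the highest summed myelin level of all, at 11250 CPM. With the mean of the cortical markers as a covariate, the 5 members called in the main fit passed again. The part of tissue composition in the result was not tested further.

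The estimated falls differed in size between members. Relative to the mean of the 9 in a library, 4 of the 9 did not overlap between the 6 R6/2 and the 6 wild-type libraries. Each gene was set against the mean log2 CPM of all 9 in its own library, which takes out any factor common to them. On this scale Mal averaged -0.09 ± 0.11 in R6/2 PLX3397 and 0.07 ± 0.19 in R6/2 vehicle, against 0.45 ± 0.06 in wild-type PLX3397 and 0.46 ± 0.03 in wild-type vehicle (SD, n = 3 each). Mal and Cldn11 were below, and Cnp and Mag above, in all 6 R6/2 libraries compared with all 6 wild-type libraries. For Cldn11 they nearly met, at -0.80 in the highest R6/2 library and -0.77 in the lowest wild-type library. The share of all genes without overlap was not computed on this scale, so the count has no background to be read against. Because each gene is set against the mean of the same 9, a fall in some members raises the others on it. The averaged shifts were -0.46 for Mal, -0.34 for Cldn11, 0.39 for Cnp and 0.37 for Mag. Ugt8a shifted in opposite directions, by 0.45 between the PLX3397 groups and by -0.88 between the vehicle groups, with no overlap in either, and Mbp by -0.17 and 0.16 in the same order. These patterns were noticed in the values and carry no test. Cnp and Mag are the members with the highest transcript GC content (54.8% and 57.6%, against 48.9% for Mal and 50.9% for Cldn11). After a trend on GC content and length was removed from each library, the averaged differences were -1.20 for Mal and -0.98 for Cldn11, against -0.24 for Cnp and -0.20 for Mag.

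**Figure D2:**
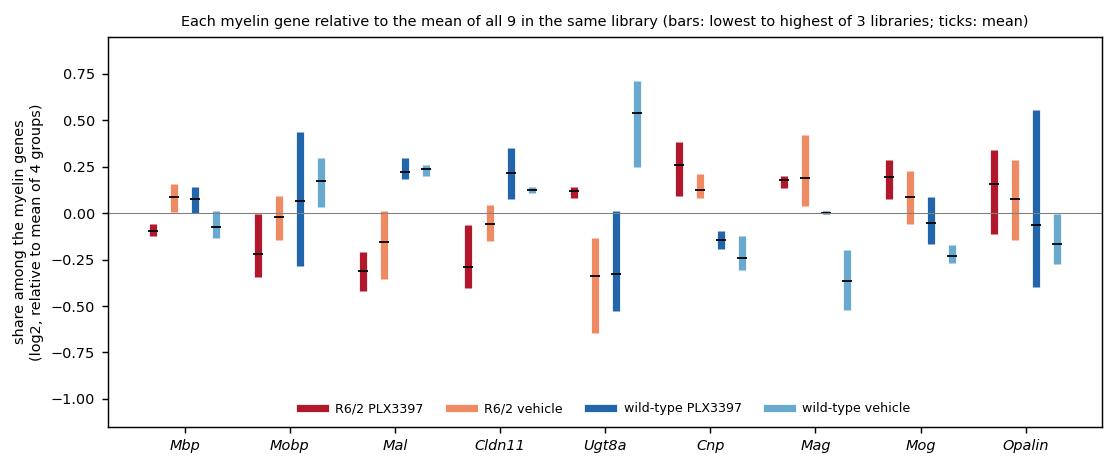
Level of each myelin gene relative to the mean of the 9 in the same library (log2), shown relative to the mean of the 4 groups (y axis) for each gene (x axis). Bars span the lowest to the highest of 3 libraries and ticks mark the mean. Mal and Cldn11 sit lower, and Cnp and Mag higher, in both R6/2 groups than in both wild-type groups.

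Within vehicle, all 9 genes had a lower estimate in R6/2 than in wild type with all libraries, and Ugt8a passed the test. The median difference was -0.50 on the log2 scale, against 0.01 over all genes. Mag, at -0.11, lay above 0 without wild-type vehicle library 2 (0.04) or without R6/2 vehicle library 2 (0.08). Ugt8a fell by 1.54 ± 0.29 (adjusted p = 0.032, limma), to 34.5% of the wild-type level. This was 1 of 9 members called, where 2.11% of all genes were called. Groups did not overlap for 4 of 9 (Cldn11, Mal, Mobp and Ugt8a), which was so for 17.1% of all genes. Without R6/2 vehicle library 1, 2 or 3, or wild-type vehicle library 1 or 2, no member was called, and without wild-type vehicle library 3 both Mal and Ugt8a were. Over all 15397 genes 79, 2, 51, 1 and 1 were called in the fits with no member called, in that order, and 471 in the last.

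Within PLX3397, the R6/2 level was lower than the wild-type level by a larger estimate than within vehicle for 8 of the 9 genes, although the difference between the 2 comparisons was called for none. That order did not hold for Cnp and Mog after removal of the GC and length trend, and it held for 3 of 9 without R6/2 PLX3397 libraries 1 and 2. The median difference was -0.74, against 0.00 over all genes, and 4 of 9 members were called lower, where 35% of all genes were called and 17.9% were called as lower. These were Mal and Cldn11 (above), Mobp at -1.20 ± 0.36 (adjusted p = 0.025, limma) and Mbp at -1.09 ± 0.32 (adjusted p = 0.0222). After removal of the GC and length trend 3 were called, and Mobp was not (-0.93, adjusted p = 0.07, within 0.00945 to 0.522 over its 25 alternatives). For each of them every R6/2 library was below every wild-type library, which was so for 24.2% of all genes. The count was 2 of 9 (Mal and Cldn11) without R6/2 PLX3397 library 1, without R6/2 PLX3397 library 2 or without wild-type PLX3397 library 1. Over all 15397 genes 3383, 3461 and 5581 were called in these fits, in that order, against 5389 with all libraries. Without both R6/2 PLX3397 libraries 1 and 2, which leaves 1 library in that group, Mal differed by -0.87 and Cldn11 by -0.72. Fewer members and fewer of all genes were called there.

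Set against wild-type vehicle, R6/2 PLX3397 striatum had 3 of 9 members called lower, where 4.56% of all genes were called. They were Mal (-1.53 ± 0.28, adjusted p = 0.0119), Cldn11 (-1.39 ± 0.31, adjusted p = 0.0308) and Ugt8a (-1.40 ± 0.29, adjusted p = 0.02) by limma, and the 9 dropped by 1.00 at the median. Of all genes 3.63% were called as lower. No member was called without R6/2 PLX3397 library 1 or 2 or without wild-type vehicle library 1 or 2, and 4 were called without the third library of either group or without wild-type PLX3397 library 1. In the fits with no member called, 294, 388, 246 and 246 of all genes were called, in that order, against 702 with all libraries. Without R6/2 vehicle library 3 the members called were Mal and Ugt8a. The comparison shares its groups with those above.

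**Figure D3:**
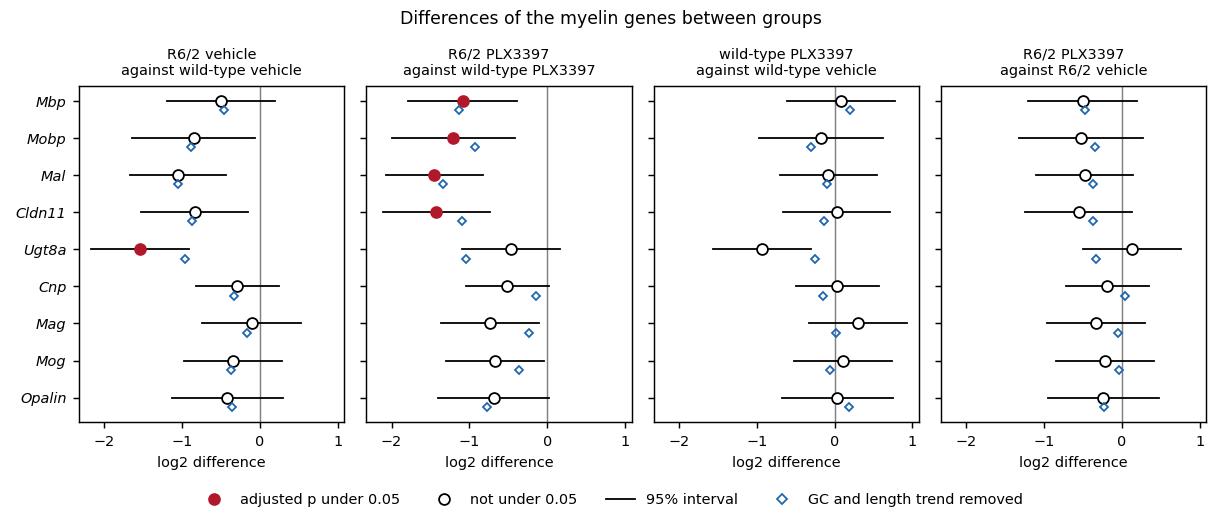
Log2 differences (x axis) of the 9 myelin genes in 4 comparisons. Circles with 95% intervals are the limma estimates, filled where the adjusted p is under 0.05, and diamonds are the estimates after removal of a GC and length trend. Mal, Cldn11, Mobp and Mbp pass within PLX3397 and Ugt8a passes within vehicle.

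PLX3397 left no called difference in any myelin gene of wild-type striatum, where the microglial markers differed by a median of -5.48 on the log2 scale. The median difference of the myelin genes was 0.04, with 3 of 9 below 0, and 0 of 9 were called by limma, where 14.2% of all genes were called and 8.3% as lower. One member, Ugt8a, had an unadjusted p under 0.05, with a difference of -0.93 ± 0.29 (adjusted p = 0.0517), and its 3 wild-type PLX3397 libraries (6.80, 6.60 and 6.67) lay below its 3 wild-type vehicle libraries (7.92, 8.10 and 6.85), as for 17.3% of all genes. Without wild-type vehicle library 3, or without R6/2 PLX3397 library 3, Ugt8a was called. The 95% intervals of the other 8 genes ran from -0.96 at the lowest (Mobp) to 0.93 at the highest (Mag), so changes within a gene's own interval are not excluded. Apart from Mobp, the lowest bound among them was -0.70, for Mal.

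PLX3397 also left no called difference in any myelin gene of R6/2 striatum. All 9 genes overlapped between R6/2 PLX3397 and R6/2 vehicle, a count given without its share over all genes. Of the estimates 8 of 9 lay below 0, and the median difference was -0.33, against -0.01 over all genes. None of the 9 was called by limma and none had an unadjusted p under 0.05, where 1.1% of all genes were called. The absence of calls among the 9 is thus near the share over all genes. The lowest estimate was -0.55 ± 0.31 for Cldn11, with an interval of -1.24 to 0.13. Without R6/2 PLX3397 libraries 1 and 2 the median was 0.14, and without R6/2 vehicle library 1 it was -0.06.

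The drug difference in R6/2 minus that in wild type was not called for any of the 9, where 17% of all genes were called. Ugt8a had the lowest unadjusted p, with 1.07 ± 0.41 (adjusted p = 0.0868, limma), and it was called without wild-type vehicle library 3. The other 8 were below 0, from -0.63 for Mag to -0.22 for Cnp, with a median of -0.35 over the 9. After removal of the GC and length trend this median was -0.08, with Cnp at 0.19 and Mog at 0.01. Without R6/2 PLX3397 libraries 1 and 2, 3 of 9 members were below 0.

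Ugt8a differed from the other members in its base composition, and its values changed when that was taken into account. Its transcript had 38.0% GC, against 45.8% to 57.6% for the other 8. Over all genes, the difference between wild-type PLX3397 and wild-type vehicle followed GC content, with a median of -0.71 for 513 genes of 38% to 40% GC and 0.29 for 1210 genes of 56% to 58%. The same bins had medians of -0.39 and 0.14 between R6/2 vehicle and wild-type vehicle, and of 0.08 and -0.09 in the comparison averaged over the drug. After removal of the trend, the Ugt8a difference was -0.25 in place of -0.93 for the drug in wild type, and -0.97 in place of -1.54 for genotype in vehicle (adjusted p = 0.126, within 0.008 to 0.17 over its 25 alternatives). The drug difference between genotypes was -0.08 in place of 1.07. Averaged over the drug, Ugt8a fell by 1.01 after removal and by 1.00 before it (adjusted p = 0.0185 after removal, within 0.000677 to 0.0859 over its 24 alternatives). Across the 9 genes, the drug difference in wild type correlated with GC content (r = 0.83, rho = 0.43, n = 9 genes), and r was 0.11 after removal of the trend. Mal was the member called between the vehicle groups after removal (adjusted p = 0.0452).

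**Figure D4:**
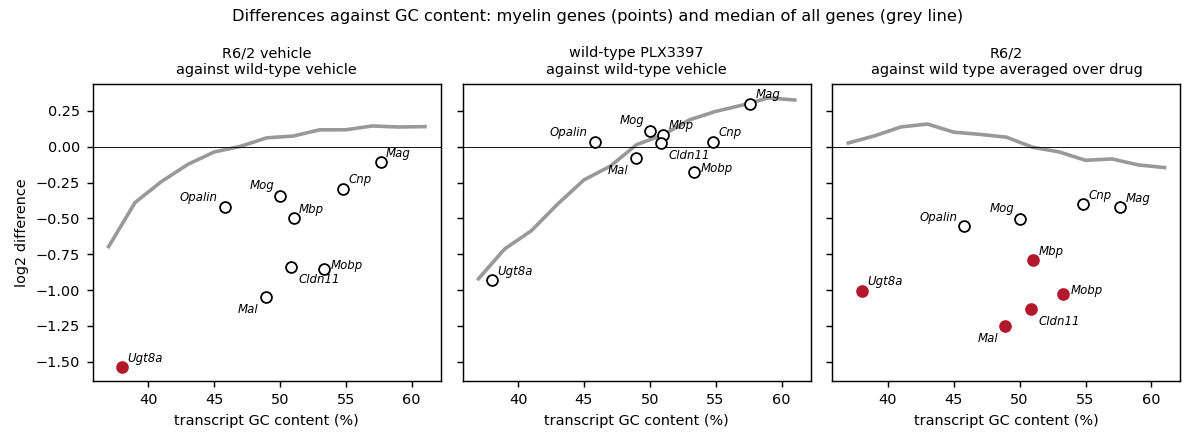
Log2 difference (y axis) against transcript GC content (x axis) for the 9 myelin genes (points, filled where the adjusted p is under 0.05) and the median of all genes in bins of GC content (grey line) in 3 comparisons. Ugt8a lies close to the grey line for the drug in wild type and below it in both genotype comparisons, as do the other members in those.

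The members moved together from mouse to mouse. In R6/2 PLX3397, library 3 was highest for 9 of 9 genes and library 2 lowest for 8. In R6/2 vehicle, library 2 was lowest for 9 and library 1 highest for 7. In wild-type PLX3397, library 3 was lowest for 8 and library 1 highest for 7, and in wild-type vehicle, library 3 was lowest for 9 and library 2 highest for 8. After removal of group means, the 36 pairs of genes had correlations of 0.33 to 0.987, with a median of 0.835, over 12 libraries. Within a library the 9 genes share its depth and dissection. The 9 genes are therefore not independent readings of a group difference.

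Among 15006 other genes ranked by Pearson correlation with the mean of the 9 over the 12 libraries, the 10 most alike were Efhd1 (r = 0.978), Prr18 (0.976), Tmbim1 (0.973), Fa2h (0.965), Frmd8 (0.960), Derl3 (0.959), Smim5 (0.959), Aif1l (0.958), Hapln2 (0.958) and Mcam (0.956). Fa2h encodes the enzyme that hydroxylates the fatty acids of myelin galactolipids, and Hapln2 a link protein at nodes of Ranvier. Their correlations after removal of group means were 0.904 to 0.989. The median correlation was 0.85 for 16 genes of myelin lipids and metabolism, 0.76 for 19 other genes of the myelin membrane and cytoskeleton, and 0.53 for 15 oligodendrocyte transcription factors and signalling genes. It was -0.09 for 8 genes of newly formed oligodendrocytes and -0.17 for 12 precursor markers.

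Other genes of mature myelin were also lower in R6/2, averaged over the drug. Of 19 other membrane and cytoskeleton genes, 5 fell and none rose, with a median of -0.40, where 11.9% of all genes were called as lower and 10.5% as higher. They included the tetraspanin Tspan2 (-0.69 ± 0.14, adjusted p = 0.00632), plasmolipin Pllp (-0.67 ± 0.17, adjusted p = 0.0183) and the glial connexin Gjc3 (-0.61 ± 0.18, adjusted p = 0.0304). Of 16 lipid and metabolism genes, 7 fell and none rose, with a median of -0.43, and after removal of the GC and length trend 6 were called lower and 2 higher. Among them were carbonic anhydrase Car2 (-1.16 ± 0.18, adjusted p = 0.00181), the creatine-synthesis enzyme Gamt (-1.29 ± 0.20, adjusted p = 0.00196), Fa2h (-1.30 ± 0.22, adjusted p = 0.00305) and Qdpr, an enzyme of tetrahydrobiopterin recycling (-0.69 ± 0.12, adjusted p = 0.00368). In Car2, Gamt and Fa2h every R6/2 library lay below every wild-type library. Of 20 cholesterol synthesis genes, which astrocytes and neurons also express, 11 fell, with the smallest p for Msmo1 (-1.11 ± 0.10, adjusted p = 0.000115), Fdft1 (-0.96 ± 0.15, adjusted p = 0.00185), Dhcr7 (-0.49 ± 0.10, adjusted p = 0.00624) and Acat2 (-0.65 ± 0.13, adjusted p = 0.00695). Of 10 astrocyte markers, 5 also fell and 1 rose. Between the vehicle groups 1 of the 19 membrane, 0 of the 16 lipid and 1 of the 20 cholesterol genes were called, as lower. Their medians were -0.24, -0.26 and -0.20, and 2.11% of all genes were called. Between the PLX3397 groups 4, 7 and 12 were called lower, and 2 cholesterol genes higher. Their medians were -0.50, -0.56 and -0.58, and 17.9% of all genes were called as lower.

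Among the transcription factors and signalling genes of the oligodendrocyte lineage, the share called in the main fit did not exceed that over all genes. Of 15 transcription factors and signalling genes, 1 fell and 1 rose in R6/2 averaged over the drug, where 22.4% of all genes were called, and 1 fell and 3 rose after removal of the GC and length trend. Nkx6-2, a homeobox factor of oligodendrocytes, fell by 0.58 ± 0.18 (adjusted p = 0.0378, limma), and by 0.26 after removal of the GC trend, where it did not pass. Zfp488, a zinc finger gene of oligodendrocyte differentiation, was higher by 1.58 ± 0.17 (adjusted p = 0.000337, limma), with all 6 R6/2 libraries above all 6 wild-type libraries. The share of all genes with every R6/2 library higher was not computed. The largest estimate in this list was 0.78 between the vehicle groups, where 0 were called higher, and 2.38 between the PLX3397 groups. Zfp488 also fell with PLX3397 in wild type (below), which enters the averaged difference. Sox10, the activator of many myelin genes, differed by -0.19 ± 0.17 (adjusted p = 0.455) and Myrf, the master regulator of myelin transcription, by -0.19 ± 0.21 (adjusted p = 0.554). Of 8 measured genes of newly formed oligodendrocytes, Cemip2 rose by 0.44 ± 0.14 (adjusted p = 0.0414) and Rnf122 fell by 0.61 ± 0.16 (adjusted p = 0.0208), and after removal of the trend 2 rose and 1 fell. Of 12 precursor markers, 3 rose, namely Tnr (1.01 ± 0.31, adjusted p = 0.0361), Sox6 (0.54 ± 0.16, adjusted p = 0.0317) and Neu4 (0.54 ± 0.17, adjusted p = 0.041). The precursor marker Cspg5 fell by 0.45 ± 0.11 (adjusted p = 0.0138), and after removal of the trend 2 rose and 1 fell. Between the vehicle groups 10 of the 12 precursor markers were below 0 (median -0.25) and 0 were called, where 2.11% of all genes were called. Between the PLX3397 groups 6 were called higher and 1 lower (median 0.94), where 35% of all genes were called. The drug difference between genotypes was called higher for 6 of the 12 (3 after removal of the trend), where 17% of all genes were called.

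In wild-type striatum, PLX3397 went with lower precursor genes while no myelin gene was called. Of all genes 14.2% were called in this comparison and 8.3% as lower. Of 12 precursor markers 7 fell, among them Ptprz1 (-1.66 ± 0.22, adjusted p = 0.00237), the growth factor receptor Pdgfra (-1.46 ± 0.22, adjusted p = 0.0042), Sox6 (-1.42 ± 0.22, adjusted p = 0.00549) and versican, Vcan (-1.86 ± 0.40, adjusted p = 0.0172). After removal of the GC trend 5 of the 12 were called. Of 8 genes of newly formed oligodendrocytes 2 fell, namely Gpr17, a receptor of committed precursors (-1.33 ± 0.15, adjusted p = 0.000734), and Itpr2 (-1.37 ± 0.28, adjusted p = 0.0157). Zfp488 (-1.25 ± 0.25, adjusted p = 0.0137) and Zfp536 (-1.54 ± 0.40, adjusted p = 0.0317) also fell. Of the 19 other membrane and cytoskeleton genes 1 fell, Tspan2 at -0.88 ± 0.20 (adjusted p = 0.0193), and it was not called after removal of the GC trend (-0.34). Among the 16 lipid and metabolism genes the smallest p was that of Smpd1, a lysosomal sphingomyelinase (0.46 ± 0.15, adjusted p = 0.061), so none was called by limma. Of the 20 cholesterol synthesis genes 1 fell, Idi1 at -1.01 ± 0.26 (adjusted p = 0.0313). In R6/2 striatum, PLX3397 gave no call in any of these 5 oligodendrocyte lists or among the cholesterol genes, where 1.1% of all genes were called. The absence of calls there is thus near the share over all genes.

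**Figure D5:**
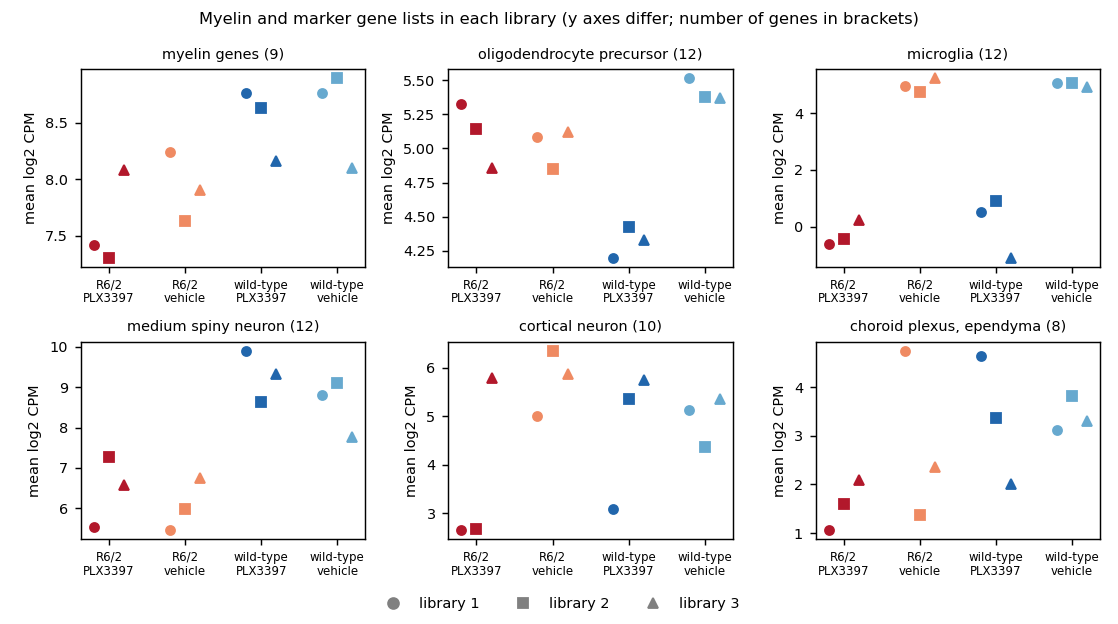
Mean log2 CPM (y axes, with different ranges) of the 9 myelin genes and of 5 marker lists in each library, by group. The precursor markers are lowest in wild-type PLX3397 (4.20 to 4.42), where the myelin genes (8.16 to 8.76) overlap wild-type vehicle (8.10 to 8.89).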

How the data were processed

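RNA from microdissected striatum of 12 mice was made into Illumina TruSeq libraries, per the labels' protocols. The submitters' processing notes name STAR, featureCounts, edgeR, limma and the build mm10, with no roles or versions. The deposited table held log2 values, which the authors titled RPKM. The recovered steps gave whole reads scaled to library size, with no length term: in every library 100% of the values were whole within 0.1 read, so they were treated as log2 CPM with a prior of 1.65 to 2.41 reads, scaled by factors of 0.935 to 1.09. Recovered reads per library were 18902120 to 24293208. Of the rows, 140 had a gene ID but no symbol and were kept.

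Groups were compared with limma 3.58.1 (R 4.3.3) on the deposited log2 CPM, with 1 mean for each group over all 12 libraries, a trended prior variance, two-sided tests and Benjamini-Hochberg adjustment over 15397 genes, with a threshold of 0.05. The fit was tested on simulated data. Intervals are 95%. No filter on low values was used. GC content and length came from GENCODE transcripts of the same build for 14305 genes (92.9%), and positions and promoters from RefSeq, which matched 15074 genes. The GC and length trend was a spline with 5 degrees of freedom in each library.

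Alternatives were another scaling (median of ratios), a minimum mean of 1 CPM, priors of 0.5 and 10 reads, limma-voom on the recovered reads, no intensity trend, removal of the GC and length trend, a replicate block, a cortical marker covariate, separate fits of 6 libraries, and leaving out libraries. DESeq2 and edgeR tests were not run, since the main test fits the deposited unit. The members and lists were chosen with earlier results of these data known. Every member is named. Related lists are described averaged over the drug and for the drug in wild type. The rule was to name the genes of a list that were called if 4 or fewer, otherwise the 4 with the smallest p, and up to 2 in any case. Lists with no call are given by count alone, and an item is not reported here. Sox10, Myrf and the pair of genes quoted from the likeness ranking by role were chosen after their values were seen. Counts of calls in a list are descriptions, not tests.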

Additional observations from a re-analysis of the deposited data

How the results depend on the processing

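Of the differences averaged over the drug, all 9 members stayed below 0 under each of the 24 alternatives, and so they did between the PLX3397 groups under 25. Counts of members called were 1 between the vehicle groups, 4 between the PLX3397 groups, 3 for R6/2 PLX3397 against wild-type vehicle and 5 averaged over the drug. With the replicate block they were 0, 4, 1 and 5, with the block and the GC and length trend removed 0, 2, 1 and 5, and with the cortical covariate 0, 4, 1 and 5. In separate fits of 6 libraries the first 3 were 1, 2 and 1. Leaving out R6/2 vehicle library 1 and wild-type PLX3397 library 1 (choroid-rich) gave 0, 2, 4 and 5. Without R6/2 PLX3397 libraries 1 and 2 they were 1, 0, 0 and 1, and the median differences were 0.14 between R6/2 PLX3397 and R6/2 vehicle, -0.49 between R6/2 PLX3397 and wild-type vehicle, and 0.0898 for the drug difference between genotypes. Calls over all genes changed as well. Between the vehicle groups 325 of 15397 genes were called in the main fit, 40 with the replicate block and 99 with the cortical covariate. Between the PLX3397 groups these counts were 5389, 4468 and 4639. Without R6/2 PLX3397 libraries 1 and 2 fewer of all genes were called in each of these comparisons, so that drop was not limited to the members. The cause of these changes was not tested, except that fits of fewer libraries have fewer degrees of freedom.

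Leaving out each library in turn gave 0 to 2 calls (median -0.75 to -0.36) between the vehicle groups, 2 to 5 (-1.01 to -0.63) between the PLX3397 groups, 0 to 4 (-1.26 to -0.84) for R6/2 PLX3397 against wild-type vehicle and 4 to 7 (-0.92 to -0.71) averaged over the drug. It gave 0 to 1 (-0.17 to 0.21) for the drug in wild type, 0 to 0 (-0.58 to -0.06) for the drug in R6/2 and 0 to 1 (-0.69 to -0.11) for the drug difference between genotypes. Where 1 library of a group remained, it was assumed to vary like the other groups. Removing the GC and length trend moved the median of all genes to 0.10 between the vehicle groups and to 0.12 for R6/2 PLX3397 against wild-type vehicle.

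No pairing of the mice by replicate number was seen: of 18 pairs with the same number, 3 had correlated deviations above 0.1 (-0.34 to 0.40), and 0 of 12 libraries correlated best with their own number. Such correlations cannot show that mice with the same number were handled apart. With 3 mice in each group, members below the threshold are not shown to be unchanged. Each value rested on at least 585 reads, so counts near 0 limited none of them.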
